A study of Mus musculus with 10 samples.

Results

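The glucuronyl, glutathione and sulfo transferases described here are 35 genes of the mouse kidney. They were selected on their names and on measured values: protein-coding rows whose gene name starts with Ugt, Gst or Sult and whose mean over all 10 libraries was at least 0.5 FPKM, a fragment count divided by gene length and by library size. The table held 55952 genes, of which 15264 reached that level, and 74 of its rows carried such a name. The 35 genes were 12 of 22 protein-coding Ugt genes, 19 of 23 Gst genes and 4 of 21 Sult genes. A further 31 protein-coding genes of the 3 families lay below the level, 13 of them at 0 in every library, and 8 rows were pseudogenes.

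Kidneys were compared between C57BL/6 mice kept at an altitude of 4200 m (hypoxia, 5 libraries) and C57BL/6 mice kept at 400 m (control, 5 libraries), in both groups for 30 days. Both groups were of the same inbred strain, and no other treatment or allele is labelled for either. Each group was housed at its own altitude, so altitude and site cannot be told apart, and the age of the mice is not given in the sources used here. Nothing in the labels ties the samples to separate animals, and p-values here cover the spread among the samples as labelled, which may be technical.

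Conjugating enzymes attach a polar group to drugs, hormones and reactive by-products so that these can be carried out of the cell and excreted in urine or bile. UDP-glucuronosyltransferases (Ugt genes) transfer a sugar from a UDP-sugar, glutathione S-transferases (Gst genes) join glutathione to electrophiles, and cytosolic sulfotransferases (Sult genes) transfer sulfate from the donor PAPS. In the kidney the proximal tubule is the main site of this chemistry, and it also takes up and trims glutathione conjugates into mercapturates.

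The libraries held 16561672 to 17845464 reads assigned to genes. The library sizes by which the FPKM values had been divided differed from these totals and ran from 1.64e+07 to 1.82e+07. At those sizes 3 reads of a gene of 1 kb corresponded to 0.165 to 0.183 FPKM. Markers of the early proximal tubule summed to 586 to 1399 FPKM in hypoxia and to 1112 to 1655 FPKM in controls, whereas 4 retina markers summed to 0.122 to 0.428 FPKM in hypoxia and 0.301 to 0.656 FPKM in controls. Every sample is labelled kidney, although the extraction protocol names the retina. Markers of other tissues were high in 3 hypoxia libraries. The 4 B cell markers summed to 320.8 FPKM in hypoxia replicate 5, against 1.86 to 2.05 FPKM in hypoxia replicates 1 to 3 and 0.825 to 1.62 FPKM in controls. The 6 markers of the adrenal cortex summed to 1045 FPKM in hypoxia replicate 4, against 1.49 to 1.68 FPKM in hypoxia replicates 1 to 3 and 0.920 to 1.55 FPKM in controls. Albumin (Alb), the main secreted protein of liver, was at 45.1 FPKM in hypoxia replicate 2 and between 1.03 and 5.48 FPKM in the other 9 libraries. The 5 liver markers summed to 586 FPKM in that library, below 669 FPKM in hypoxia replicate 4. Cyp2e1 made up most of these sums, at 521 FPKM in hypoxia replicate 2 and 659 FPKM in hypoxia replicate 4. Hypoxia replicate 5 was the lowest hypoxia library in 27 of the 35 transferase genes, and control replicate 4 was the lowest control in 15. Results are also given for the 8 libraries left after hypoxia replicates 4 and 5 are omitted, called the reduced set. That omission was fixed together with the choice of genes and does not rest on these counts. Hypoxia replicate 4 was the lowest hypoxia library in 1 of the 35 genes and the highest in 10. Hypoxia replicate 2 and control replicate 4 stay in the reduced set.

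Among the 35 genes, 6 were higher and 1 was lower in hypoxia than in controls. The higher genes were Ugt1a2, Ugt1a10, Gsta2, Gsta4, Gsta3 and Gstk1, and the lower gene was Ugt3a1. The test was limma on log2(FPKM + 0.5), fitted on all 15264 genes, with a Benjamini-Hochberg adjusted p under 0.05 as the threshold. Over all genes tested, 3.66% were called higher and 7.79% lower, against 17.1% and 2.86% of the 35. In the reduced set the same 6 genes were called higher together with Gstt1 and Gstm7, and no gene was called lower, against 4.62% of all tested genes higher and 7.36% lower. Ugt3a1 then had an adjusted p of 0.0552 in the limma fit. The median log2 fold change, hypoxia minus control, was 0.11 over the 35 genes and 0.012 over all genes tested, and 25 of the 35 genes against 7884 of the 15264 were above 0. Of the 25, Gstm6 and Ugt2a3 averaged 0.424 and 0.491 FPKM in controls and reached the level of the rule only through hypoxia. Ugt1a6b, at 0.456 FPKM in hypoxia, reached it only through controls. Of the 35 genes, 28 did not pass the threshold, with log2 fold changes from -0.81 for Gstp1 to 0.53 for Gstm7.

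All 5 hypoxia values lay above all 5 control values in 3 of the 35 genes, Ugt1a2, Ugt1a10 and Gsta4, against 5.68% of all genes tested. All 5 lay below the controls in Ugt3a1 alone, against 8.54% of all genes tested. With hypoxia replicates 1 to 3 only, 15 of the 35 genes lay above every control, 11 of them Gst and 4 Ugt genes, against 9.88% of all genes tested. Gstm6, 1 of these 11, averaged 0.424 FPKM in controls and reached the level of the rule only through hypoxia, at 0.680 FPKM. Ugt3a1 again was the single gene that lay below every control, against 11.4% of all genes tested. The plot of the 35 fold changes shows both fits side by side.

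**Figure D1:**
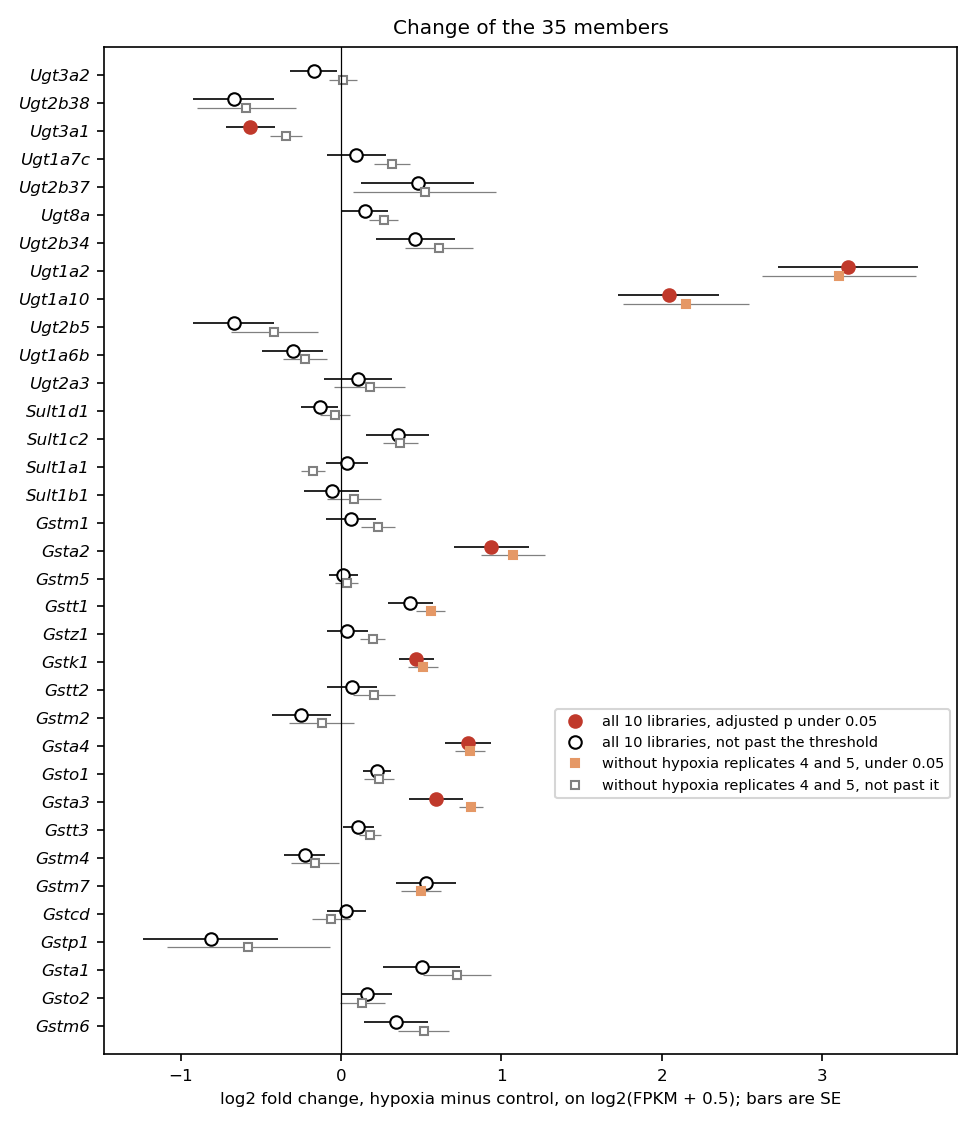
Log2 fold change (hypoxia minus control, on log2(FPKM + 0.5)) of each of the 35 genes, by family and level; circles are the fit on all 10 libraries, squares the fit without hypoxia replicates 4 and 5, filled symbols have an adjusted p under 0.05, and bars are standard errors. Ugt1a2 at 3.17 and Ugt1a10 at 2.05 lie far to the right of the other genes, and Ugt3a1 at -0.57 is the filled circle left of 0.

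The families differed in summed level. The 19 Gst genes summed to 903 ± 160 FPKM in hypoxia and 732 ± 48.5 FPKM in controls (SD, n = 5 each), a ratio of 1.23, or 1.32 in the reduced set. Hypoxia replicates 1 to 4 lay between 933 and 1002 FPKM, above every control at 667 to 774 FPKM, whereas hypoxia replicate 5 was at 620 FPKM, below all of them. The 12 Ugt genes summed to 1059 ± 204 FPKM in hypoxia and 1278 ± 170 FPKM in controls, a ratio of 0.829, or 0.917 in the reduced set, and the groups overlapped. The 4 Sult genes summed to 382 ± 50.2 FPKM in hypoxia and 399.6 ± 26.6 FPKM in controls, a ratio of 0.956, or 1.00 in the reduced set. No p is given for these sums, because the genes were chosen with results of these data known.

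**Figure D2:**
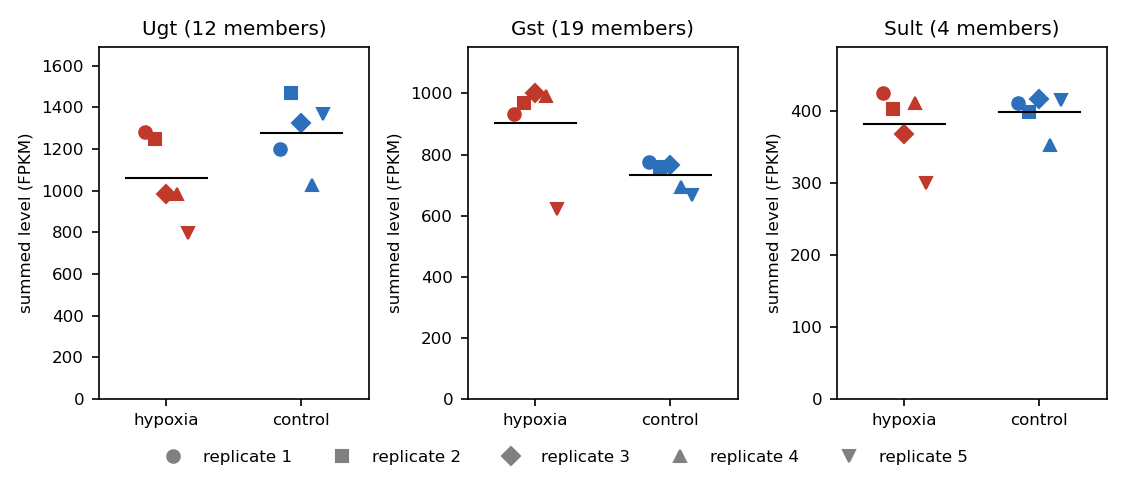
Summed level (FPKM) of the members of each family in every library, hypoxia left and control right in each panel; symbols mark replicate numbers, which do not pair the groups, and lines are group means. Only the Gst panel shows 4 hypoxia libraries (933 to 1002 FPKM) above all 5 controls (667 to 774 FPKM), with hypoxia replicate 5 at 620 FPKM.

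A few genes carried each sum. Ugt3a2 made up 45.3% of the Ugt sum in hypoxia and 41.8% in controls, and Ugt2b38 28.2% in hypoxia and 36.7% in controls. Gstm1 made up 31.2% of the Gst sum in hypoxia and 36.4% in controls, and Gsta2 21.7% in hypoxia and 13.7% in controls. Sult1d1 made up 84.4% of the Sult sum in hypoxia and 88.1% in controls. A family sum therefore says little about its less abundant members, which are described one by one.

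The Ugt1a genes lie in a single locus on chromosome 1, where each gene splices its own first exon, with its own promoter, to common downstream exons. The locus holds Ugt1a10, Ugt1a7c, Ugt1a6b and Ugt1a2 of the genes chosen here. Ugt1a2 (ENSMUSG00000090171) lies at chr1:88200601-88218997 on the plus strand of GRCm38 and Ugt1a10 (ENSMUSG00000090165) at chr1:88055388-88219004. The promoter windows of these genes, from 250 bases before to 50 bases after the start, are shown because they are separate starts of 1 locus and these genes had the largest log2 fold changes among the 35. The sequences are from RefSeq, assembly GRCm38.p6, plus strand, chr1:88055161-88055460 for Ugt1a10 and chr1:88200361-88200660 for Ugt1a2. Capitals mark GTTAAT, a motif bound by HNF1 factors, or its reverse complement ATTAAC.
Ugt1a10: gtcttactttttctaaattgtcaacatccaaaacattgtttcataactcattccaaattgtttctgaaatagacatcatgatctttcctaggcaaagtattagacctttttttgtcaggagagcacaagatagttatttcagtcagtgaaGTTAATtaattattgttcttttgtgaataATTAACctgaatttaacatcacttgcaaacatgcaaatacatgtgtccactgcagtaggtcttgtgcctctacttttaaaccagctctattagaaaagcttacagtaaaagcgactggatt
Ugt1a2: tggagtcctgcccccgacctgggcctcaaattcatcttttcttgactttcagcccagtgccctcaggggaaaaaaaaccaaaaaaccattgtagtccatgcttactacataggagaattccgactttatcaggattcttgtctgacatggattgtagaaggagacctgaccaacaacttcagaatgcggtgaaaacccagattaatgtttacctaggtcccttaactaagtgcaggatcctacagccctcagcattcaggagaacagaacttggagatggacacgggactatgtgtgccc
In the Ugt1a10 window GTTAAT begins 100 bases and ATTAAC 71 bases before the start, and the Ugt1a2 window holds no match to any of the 4 motifs searched.

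Ugt1a2 had 6.68, 4.21, 26.9, 18.3 and 5.66 FPKM in hypoxia replicates 1 to 5, against 0.837, 0.551, 0.512, 0.572 and 0.708 FPKM in control replicates 1 to 5. The groups did not overlap, and the hypoxia libraries spread widely among themselves, with replicates 3 and 4 highest. The mean was 12.3 ± 9.87 FPKM in hypoxia and 0.636 ± 0.135 FPKM in controls (SD, n = 5 each), and the log2 fold change was 3.17 (limma adjusted p = 0.00252, SE 0.436). It was 3.11 in the reduced set (limma adjusted p = 0.00678), and the gene was called in each of the 10 fits that left out 1 library. In controls these values rested on 19 to 31 reads, and in hypoxia on 169 to 1019 reads.

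Ugt1a10 had 3.65, 7.72, 15.95, 6.98 and 5.78 FPKM in hypoxia replicates 1 to 5, against 1.13, 1.07, 2.02, 1.75 and 1.01 FPKM in control replicates 1 to 5. Again no hypoxia value lay within the control range, and hypoxia replicate 3 was the highest library for this gene as for Ugt1a2. The mean was 8.02 ± 4.70 FPKM in hypoxia and 1.40 ± 0.458 FPKM in controls (SD, n = 5 each), with a log2 fold change of 2.05 (limma adjusted p = 0.0044, SE 0.315). The reduced set gave a log2 fold change of 2.15 (limma adjusted p = 0.0124).

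The other 2 genes of the locus among the 35 did not pass the threshold. Ugt1a7c, the most abundant gene of the locus in this table, was at 59.3 ± 14.6 FPKM in hypoxia and 54.2 ± 6.79 FPKM in controls, with a log2 fold change of 0.096 (limma adjusted p = 0.754, SE 0.184). Its hypoxia replicates 1 to 3, at 62.8 to 73.7 FPKM, lay above all controls, at 44.5 to 61.9 FPKM, while hypoxia replicate 5 was at 34.98 FPKM. Ugt1a6b was near the level threshold, at 0.456 ± 0.183 FPKM in hypoxia and 0.665 ± 0.141 FPKM in controls, with a log2 fold change of -0.30 (limma adjusted p = 0.309).

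Ugt1a1, the transferase that conjugates bilirubin, fell just outside the rule with a mean of 0.464 FPKM over all libraries and was not tested. It was assigned 35, 16, 61, 44 and 20 reads in hypoxia replicates 1 to 5, and 1, 1, 2, 0 and 1 reads in control replicates 1 to 5. No hypoxia library was as low as any control, and hypoxia replicate 3 was again the highest. The other genes next to the threshold were Ugt2a3 at 0.514 FPKM, Gstm6 at 0.552 FPKM and Ugt1a6b at 0.560 FPKM inside it, and Sult2b1 at 0.323 FPKM and Ugt1a6a at 0.247 FPKM outside it. Ugt1a6a had 9 to 41 reads in hypoxia and 9 to 19 reads in controls. Of the remaining genes of the locus, Ugt1a8 had no read in any library, where 3 reads of a gene of 1 kb would be 0.165 to 0.183 FPKM. Ugt1a9 had 0 to 4 reads in hypoxia and 0 in controls, and Ugt1a5 had 0 to 3 in hypoxia and 0 to 2 in controls.

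Levels within this locus are limited by the counting. Between 50.3% and 82.7% of the exonic bases of a Ugt1a gene also belong to exons of other genes of the locus, for example 59.3% in Ugt1a2 and 64.3% in Ugt1a10. Reads from the common exons were not credited to every gene, since Ugt1a1 had 0 to 2 reads in controls where Ugt1a7c had 3409 to 4338. A library can be compared with another for the same gene, but FPKM of different Ugt1a genes are divided by lengths that include common exons, and the tool that counted them is not given in the sources used here. The plot of reads along the locus shows that the 3 genes with separated groups, Ugt1a10, Ugt1a2 and Ugt1a1, stand apart from Ugt1a7c.

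**Figure D3:**
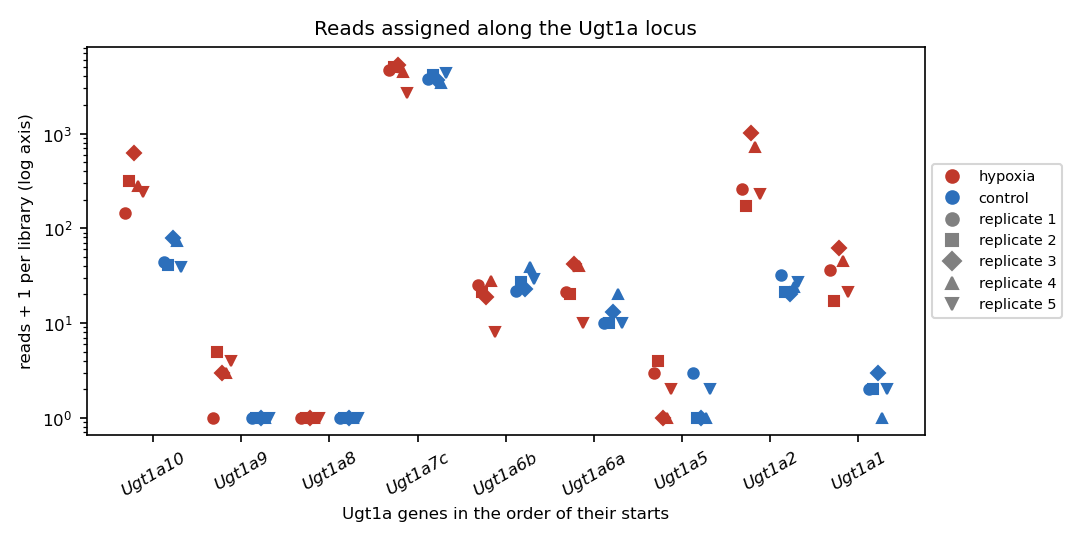
Reads assigned to each Ugt1a gene, in the order of their starts, in every library; the vertical axis is reads + 1 on a log scale, red symbols are hypoxia, blue symbols control, and shapes are replicate numbers. Hypoxia lies above control without overlap for Ugt1a10 (145 to 620 against 38 to 77 reads), Ugt1a2 (169 to 1019 against 19 to 31 reads) and Ugt1a1 (16 to 61 against 0 to 2 reads), while Ugt1a7c overlaps.

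Ugt3a1 was the single gene of the 35 that was lower in hypoxia. Human UGT3A1 uses UDP-N-acetylglucosamine in place of UDP-glucuronate. Ugt3a1 (ENSMUSG00000072664) lies at chr15:9276888-9315032 beside Ugt3a2. It had 110.4, 104.7, 94.8, 75.2 and 64.7 FPKM in hypoxia replicates 1 to 5, against 121.5, 143.6, 147.97, 128.9 and 115.4 FPKM in control replicates 1 to 5. The groups did not overlap, and the lowest hypoxia values were those of replicates 4 and 5. The mean was 89.95 ± 19.5 FPKM in hypoxia and 131.5 ± 14.0 FPKM in controls (SD, n = 5 each), with a log2 fold change of -0.57 (limma adjusted p = 0.0385, SE 0.153). In the reduced set this was -0.34 (limma adjusted p = 0.0552), and 7 of the 10 fits that left out 1 library lost the call, with the highest adjusted p of 0.0928 without control replicate 2.

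Late proximal tubule markers were also called lower in hypoxia for 4 of 6 genes, against 7.79% of all genes tested. The 6 summed to 436 to 863 FPKM in hypoxia and 825 to 1207 FPKM in controls. Slc7a13, the most abundant of them, and Slc5a8 overlapped between the groups. Slc7a13 was at 282 to 542 FPKM in hypoxia and 346 to 573 FPKM in controls. Of 6 early proximal tubule markers none passed the test, and hypoxia replicates 1 to 3 summed to 1181 to 1399 FPKM. In whole kidney, fewer cells of a type and less RNA per cell cannot be told apart, and the part of these markers in the results was not tested.

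Ugt3a2 was the most abundant of the 35 genes. Human UGT3A2 uses UDP-glucose and UDP-xylose. It had 567, 529, 515, 446 and 341 FPKM in hypoxia replicates 1 to 5, against 496, 550.3, 601, 484 and 537 FPKM in control replicates 1 to 5. The groups overlapped, with hypoxia replicates 4 and 5 below all controls, and the log2 fold change was -0.17 (limma adjusted p = 0.445, SE 0.144). In the reduced set its value turned to 0.012.

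The Ugt2 genes form a cluster on chromosome 5 and conjugate steroids and many drugs. Ugt2b38, the second most abundant of the 35, had 391, 398, 177, 266 and 260.5 FPKM in hypoxia replicates 1 to 5, against 429, 609, 431, 308 and 563 FPKM in control replicates 1 to 5. Hypoxia replicate 3 was the lowest, hypoxia replicates 3 to 5 lay below every control, and the groups overlapped. The log2 fold change was -0.67 (limma adjusted p = 0.108, SE 0.251). Ugt2b5, in the same cluster, had the same log2 fold change of -0.67 (limma adjusted p = 0.110) at 3.48 ± 1.58 FPKM in hypoxia and 5.56 ± 1.35 FPKM in controls. Ugt2b37 and Ugt2a3, which lie between these genes, had positive values of 0.48 (limma adjusted p = 0.387) and 0.11 (limma adjusted p = 0.770), and Ugt2b34 had 0.46 (limma adjusted p = 0.232). None of the 5 passed the threshold. Of the stretches of 50 bases in their transcripts, 37.4% in Ugt2b38, 41.7% in Ugt2b5 and 18.3% in Ugt2b37 occur in other genes, so their reads may have been split or lost in the authors' counting.

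Ugt8a, which makes galactosylceramide for membranes, was at 31.4 ± 6.20 FPKM in hypoxia and 27.9 ± 2.79 FPKM in controls, with a log2 fold change of 0.15 (limma adjusted p = 0.502, SE 0.144). Its hypoxia replicates 1 to 4 were at 31.2 to 35.9 FPKM and hypoxia replicate 5 at 20.8 FPKM.

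Of the alpha class of glutathione S-transferases, 3 of the 4 members chosen here were called higher, against 3.66% of all genes tested. Of these 3 only Gsta4 kept its call in each of the 10 fits that left out 1 library. The fourth member, Gsta1, had a log2 fold change of 0.50 (limma adjusted p = 0.195, SE 0.242). The 4 genes summed to 254 ± 66.8 FPKM in hypoxia and 135 ± 23.4 FPKM in controls (SD, n = 5 each), a ratio of 1.88, or 1.999 in the reduced set. Gsta1, Gsta2 and Gsta4 lie together on chromosome 9 and Gsta3 lies alone on chromosome 1. Promoter windows of Gsta3 and Gsta2, the called members with an entry in RefSeq's table, are shown to place the motifs searched. They are from GRCm38.p6, chr1:21240335-21240634 on the plus strand for Gsta3 and chr9:78347096-78347395 on the minus strand for Gsta2, where RefSeq's start lies inside the gene's annotated span. In Gsta3 capitals mark ATTAAC, the reverse complement of GTTAAT, and TGACATTGC, a match to TGACNNNGC, the core of the antioxidant response element that Nrf2 binds. In Gsta2 capitals mark GCGTG, the core of the element bound by the aryl hydrocarbon receptor.
Gsta3: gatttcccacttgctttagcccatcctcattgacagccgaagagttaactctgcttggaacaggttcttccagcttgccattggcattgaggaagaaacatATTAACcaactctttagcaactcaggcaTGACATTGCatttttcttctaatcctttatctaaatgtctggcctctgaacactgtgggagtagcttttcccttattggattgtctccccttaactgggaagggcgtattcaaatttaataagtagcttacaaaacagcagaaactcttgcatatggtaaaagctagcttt
Gsta2: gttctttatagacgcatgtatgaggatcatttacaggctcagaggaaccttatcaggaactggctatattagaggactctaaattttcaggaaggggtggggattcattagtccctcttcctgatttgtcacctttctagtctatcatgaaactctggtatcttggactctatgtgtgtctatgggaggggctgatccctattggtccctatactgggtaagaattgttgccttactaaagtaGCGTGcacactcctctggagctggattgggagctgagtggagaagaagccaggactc
The match TGACATTGC begins 121 bases before the Gsta3 start, and GCGTG begins 7 bases before the Gsta2 start.

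Gsta2 (ENSMUSG00000057933, chr9:78331018-78355788, minus strand) acts on a broad range of electrophiles and organic peroxides. It had 180.7, 198, 247, 242 and 112 FPKM in hypoxia replicates 1 to 5, against 127, 104, 94.6, 65.8 and 110.7 FPKM in control replicates 1 to 5. Hypoxia replicates 1 to 4 lay above every control, and hypoxia replicate 5 lay within the control range. The mean was 196 ± 55.0 FPKM in hypoxia and 100.6 ± 22.8 FPKM in controls (SD, n = 5 each), with a log2 fold change of 0.94 (limma adjusted p = 0.0307, SE 0.236). The reduced set gave 1.07 (limma adjusted p = 0.0125), and 7 of the 10 fits that left out 1 library lost the call, with the highest adjusted p of 0.0711 without hypoxia replicate 4. In Gsta2 49.8% of the stretches of 50 bases occur in other genes, 36.0% in Gsta1, and in Gsta1 the share was 90.5%, so the levels of both are uncertain.

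Gsta4 (ENSMUSG00000032348, chr9:78182774-78209349, plus strand) conjugates 4-hydroxynonenal, a product of lipid peroxidation. It had 29.4, 31.4, 34.97, 42.5 and 22.97 FPKM in hypoxia replicates 1 to 5, against 20.05, 17.1, 16.6, 20.3 and 16.6 FPKM in control replicates 1 to 5. This was the only Gst gene of the 19 whose groups did not overlap, with hypoxia replicate 5 nearest to the controls. The mean was 32.2 ± 7.19 FPKM in hypoxia and 18.1 ± 1.87 FPKM in controls (SD, n = 5 each), with a log2 fold change of 0.79 (limma adjusted p = 0.00839, SE 0.145). The call held in each of the 10 fits that left out 1 library, and the reduced set gave 0.80 (limma adjusted p = 0.00185). No stretch of 50 bases of Gsta4 occurs in another gene.

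Gsta3 (ENSMUSG00000025934, chr1:21240589-21265661, plus strand) is known in mice for conjugating the epoxide of aflatoxin. It had 27.1, 27.0, 29.8, 24.6 and 14.6 FPKM in hypoxia replicates 1 to 5, against 16.4, 15.9, 16.2, 13.8 and 16.5 FPKM in control replicates 1 to 5. Hypoxia replicates 1 to 4 lay above all controls and hypoxia replicate 5 within their range. The mean was 24.6 ± 5.88 FPKM in hypoxia and 15.7 ± 1.13 FPKM in controls (SD, n = 5 each), with a log2 fold change of 0.59 (limma adjusted p = 0.0452, SE 0.167). In the reduced set it was 0.81 (limma adjusted p = 0.000628). Of the 10 fits that left out 1 library, 9 lost the call, with the highest adjusted p of 0.0936 without hypoxia replicate 3, and the fit without hypoxia replicate 5 kept it at 0.000365.

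Gstk1 (ENSMUSG00000029864, chr6:42245935-42250447, plus strand) encodes the kappa class enzyme of mitochondria and peroxisomes. It had 47.1, 41.9, 47.6, 50.3 and 35.6 FPKM in hypoxia replicates 1 to 5, against 35.7, 32.3, 34.6, 27.8 and 29.2 FPKM in control replicates 1 to 5. Only hypoxia replicate 5 reached the control range, just below the highest control. The mean was 44.5 ± 5.82 FPKM in hypoxia and 31.9 ± 3.40 FPKM in controls (SD, n = 5 each), with a log2 fold change of 0.47 (limma adjusted p = 0.0231, SE 0.109). The reduced set gave 0.51 (limma adjusted p = 0.0123), and 5 of the 10 fits that left out 1 library lost the call, with the highest adjusted p of 0.0581 without control replicate 5.

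**Figure D4:**
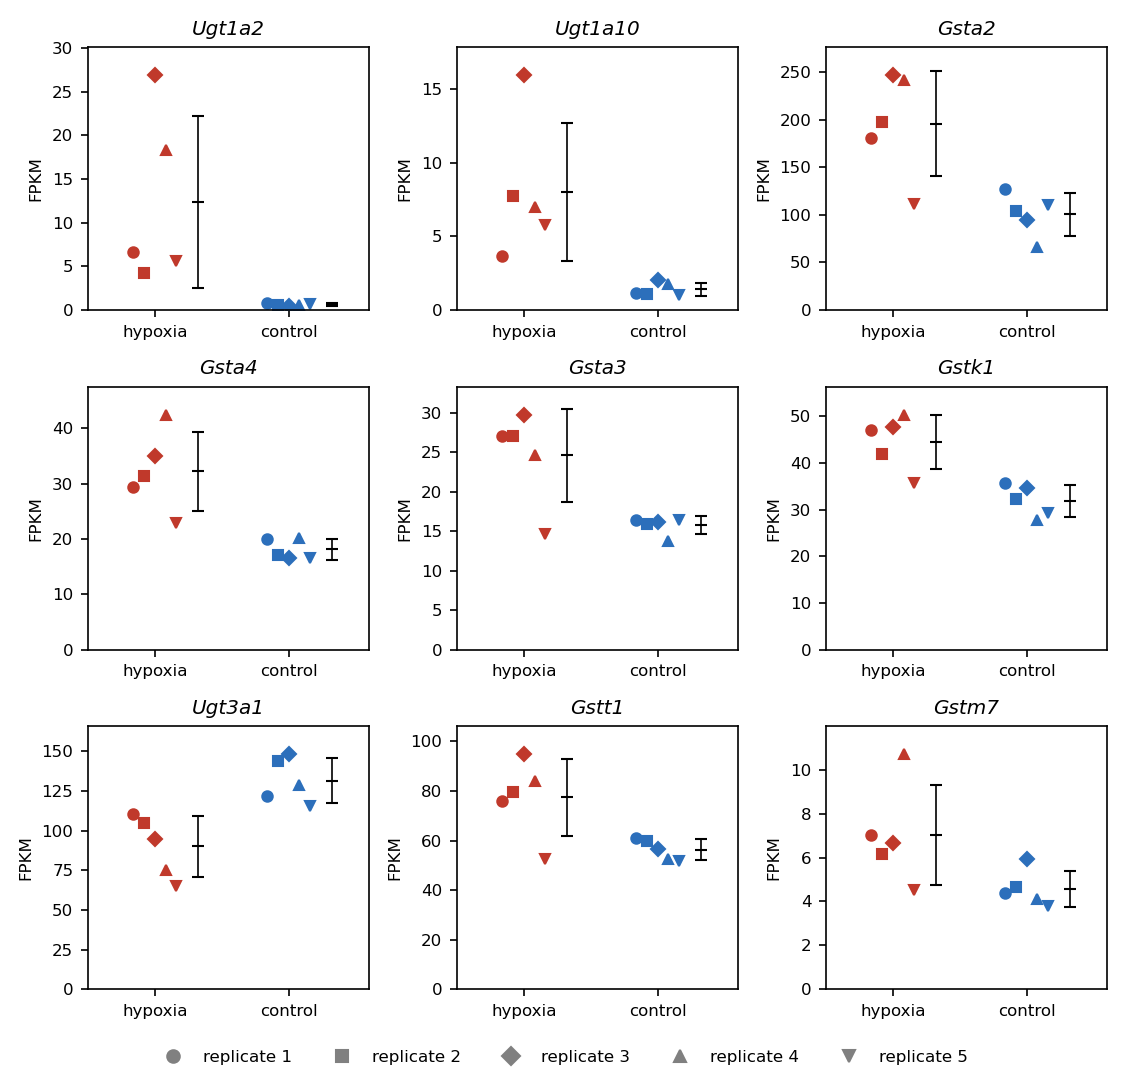
FPKM of the 7 genes called in all 10 libraries and of Gstt1 and Gstm7, called in the reduced set but not in all 10, in every library; each panel has hypoxia left and control right, shapes are replicate numbers, and the black marks are mean ± SD (n = 5 each). Groups do not overlap for Ugt1a2, Ugt1a10, Gsta4 and Ugt3a1, and hypoxia replicate 5 is the library that reaches the controls in Gsta2, Gsta3, Gstk1, Gstt1 and Gstm7.

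The theta class forms a cluster on chromosome 10 and acts on small halogenated compounds. Gstt1 had 76.0, 79.5, 94.8, 83.9 and 52.7 FPKM in hypoxia replicates 1 to 5, against 61.1, 59.9, 56.6, 52.5 and 51.8 FPKM in control replicates 1 to 5. Hypoxia replicates 1 to 4 lay above every control and hypoxia replicate 5 within their range. The log2 fold change was 0.43 (limma adjusted p = 0.0741, SE 0.141), and 0.56 in the reduced set (limma adjusted p = 0.00787). Gstt2 and Gstt3 had log2 fold changes of 0.069 and 0.11 (limma adjusted p = 0.792 and 0.484).

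The mu class, on chromosome 3, was the most abundant Gst class and did not pass the limma test in any of its 6 members, 1 of which had an unadjusted p under 0.05. Gstm1 had 305, 328, 299.6, 287 and 188 FPKM in hypoxia replicates 1 to 5, against 267, 276, 299.5, 275 and 215 FPKM in control replicates 1 to 5. The groups overlapped, and the log2 fold change was 0.062 (limma adjusted p = 0.820, SE 0.158). Gstm5 was nearly level, at 82.4 ± 9.21 FPKM in hypoxia and 81.2 ± 3.26 FPKM in controls (SD, n = 5 each), and Gstm2 and Gstm4 had log2 fold changes of -0.25 and -0.23 (limma adjusted p = 0.392 and 0.265). Gstm7 had 7.02, 6.15, 6.67, 10.7 and 4.52 FPKM in hypoxia replicates 1 to 5, against 4.40, 4.64, 5.91, 4.12 and 3.80 FPKM in control replicates 1 to 5. Its log2 fold change was 0.53 (limma adjusted p = 0.0940, SE 0.189), and 0.499 in the reduced set (limma adjusted p = 0.0324). Gstm6, near the level threshold, had a log2 fold change of 0.34 (limma adjusted p = 0.281).

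The other Gst genes did not pass the threshold. Gstz1, the maleylacetoacetate isomerase of tyrosine breakdown, was at 53.1 ± 9.01 FPKM in hypoxia and 51.2 ± 4.27 FPKM in controls (SD, n = 5 each). Gsto1, an omega class enzyme that reduces dehydroascorbate, was at 26.1 ± 3.18 FPKM in hypoxia and 22.2 ± 1.25 FPKM in controls, with a log2 fold change of 0.22 (limma adjusted p = 0.120, SE 0.0866). Gsto2 and Gstcd had log2 fold changes of 0.16 and 0.032 (limma adjusted p = 0.521 and 0.879). Gstp1, the pi class gene, was low, and a single control, replicate 2 at 8.38 FPKM, raised its control mean. The other controls were at 0.846 to 2.64 FPKM and hypoxia libraries at 0.709 to 1.92 FPKM. Medians were 2.13 FPKM in controls and 1.03 FPKM in hypoxia, and fits that left out 1 library gave log2 fold changes of -1.11 to -0.43. Its log2 fold change of -0.81 had an adjusted p of 0.226 in the limma fit, and 33.7% of its stretches of 50 bases occur in Gstp2.

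None of the 4 sulfotransferases passed the threshold in the limma fit, and none had an unadjusted p under 0.05. Sult1d1, which sulfates catecholamines in mice, had 368, 355, 306, 328 and 257 FPKM in hypoxia replicates 1 to 5, against 363, 356, 371, 306 and 364 FPKM in control replicates 1 to 5. The groups overlapped, and the log2 fold change was -0.13 (limma adjusted p = 0.461, SE 0.116). Sult1c2 had 44.8, 36.7, 51.3, 66.6 and 27.3 FPKM in hypoxia replicates 1 to 5, against 36.4, 30.9, 31.96, 33.7 and 36.8 FPKM in control replicates 1 to 5. Hypoxia replicate 4 was the highest and hypoxia replicate 5 the lowest of all 10, and the log2 fold change was 0.35 (limma adjusted p = 0.262, SE 0.198). Sult1a1, which sulfates phenols, and Sult1b1, which sulfates thyroid hormones, had log2 fold changes of 0.038 and -0.060 (limma adjusted p = 0.865 and 0.840). The same test had called 6 of the other 31 genes higher, and whether the families differ from each other was not tested.

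With all 10 libraries, no gene that supplies glutathione, UDP-glucuronate or sulfate was called higher in hypoxia, against 3.66% of all genes tested. At that share few or no calls would be found in lists of 4, 3 and 6 genes. In the reduced set Papss2 and Ugdh were called higher (limma adjusted p = 0.00506 and 0.0177), against 4.62% of all genes tested. Glutathione is made by glutamate-cysteine ligase (Gclc with Gclm) and glutathione synthetase (Gss) and is kept reduced by Gsr. Gclc was at 69.1 ± 10.9 FPKM in hypoxia and 108 ± 14.8 FPKM in controls (SD, n = 5 each), without overlap, with a log2 fold change of -0.65 (limma adjusted p = 0.0142, SE 0.133). Gclc was thus 1 of 4 genes of glutathione supply called lower, and none was higher, against 7.79% and 3.66% of all genes tested. Gss had a log2 fold change of -0.65 (limma adjusted p = 0.0524), Gclm of -0.48 (limma adjusted p = 0.0539) and Gsr of -0.19 (limma adjusted p = 0.366), all 3 short of the threshold.

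Of 7 genes that make or break down mercapturates, 2 were called lower and none higher, against 7.79% and 3.66% of all genes tested. Anpep belongs to the formation of mercapturates from glutathione conjugates, whereas Acy3 is an aminoacylase that removes the acetyl group again. Acy3 had 423, 445, 266, 267 and 219 FPKM in hypoxia replicates 1 to 5, against 1136, 1233, 1031, 871 and 990.4 FPKM in control replicates 1 to 5. Every hypoxia value was below 871 FPKM, the lowest control, and the log2 fold change was -1.75 (limma adjusted p = 0.00124, SE 0.205). It was -1.50 in the reduced set (limma adjusted p = 0.00195). Anpep, a brush border aminopeptidase, was at 33.0 ± 4.51 FPKM in hypoxia and 48.9 ± 4.95 FPKM in controls, with a log2 fold change of -0.57 (limma adjusted p = 0.0121, SE 0.112). Ggt1, the transpeptidase that opens the route, had a log2 fold change of -0.46 (limma adjusted p = 0.0844), and Nat8, which acetylates cysteine conjugates, of 0.48 (limma adjusted p = 0.110). In the reduced set Nat8 was called higher, with a log2 fold change of 0.68 (limma adjusted p = 0.0373). Mercapturate formation is a function of the proximal tubule. Of the 6 late segment markers given above, 4 were called lower in hypoxia, against 7.79% of all genes tested. The part of these markers in the values of the mercapturate genes was not tested.

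**Figure D5:**
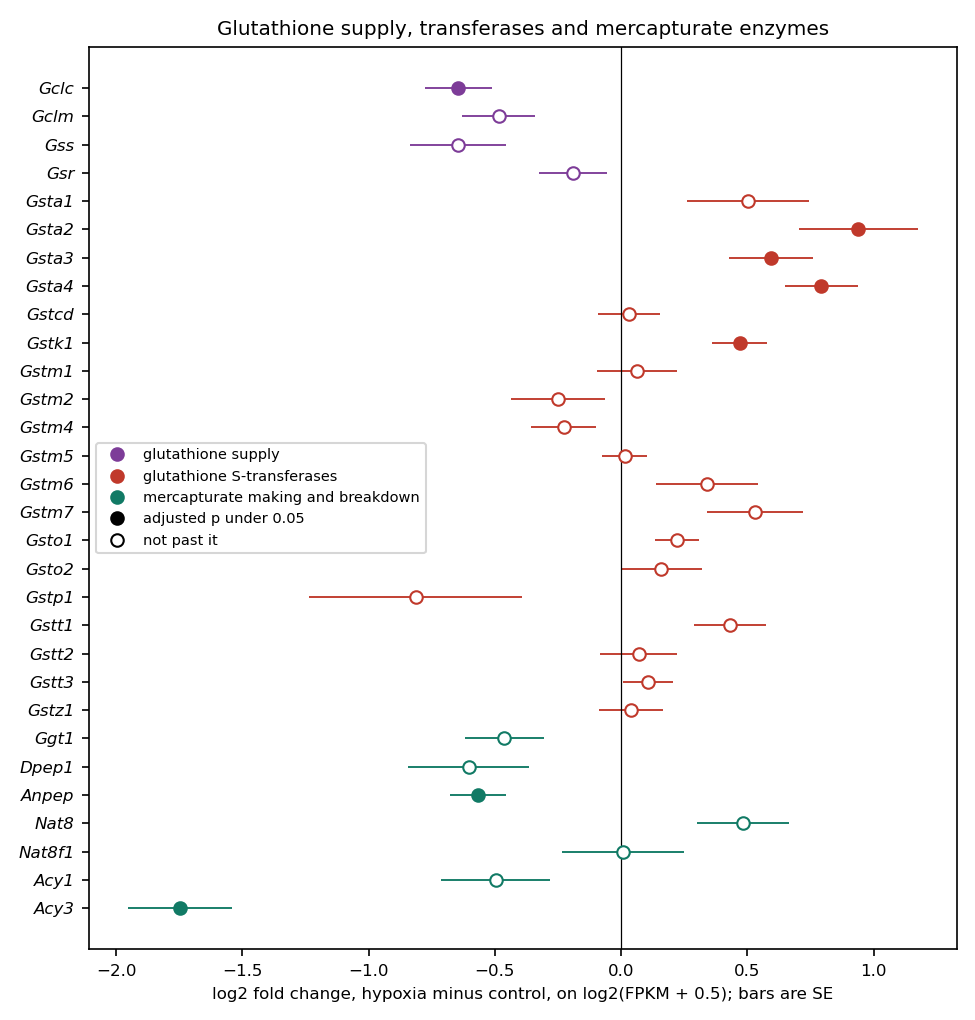
Log2 fold change (hypoxia minus control, on log2(FPKM + 0.5)) of the 4 glutathione supply genes, the 19 Gst genes and the 7 genes that make or break down mercapturates; filled symbols have an adjusted p under 0.05 and bars are standard errors. The filled Gst symbols lie right of 0, from 0.47 for Gstk1 to 0.94 for Gsta2, and the filled symbols of the other groups lie left of it, at -0.65 for Gclc, -0.57 for Anpep and -1.75 for Acy3.

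Among 5 tested genes of other glutathione-linked enzymes, 1 was higher and 2 were lower, against 3.66% and 7.79% of all genes tested. Mgst1, the microsomal glutathione S-transferase, which does not share the Gst name, had 41.6, 48.7, 54.3, 68.1 and 38.0 FPKM in hypoxia replicates 1 to 5, against 24.7, 25.4, 26.4, 24.9 and 22.1 FPKM in control replicates 1 to 5. No values overlapped, and its log2 fold change was 0.98 (limma adjusted p = 0.00327, SE 0.142). The prostaglandin E synthases Ptges2 and Ptges had log2 fold changes of -0.56 and -0.58 (limma adjusted p = 0.00788 and 0.0294). Ptges lost its call in the reduced set (limma adjusted p = 0.0554) and in 5 of the 10 fits that left out 1 library. Mgst3, also microsomal, was at 69.4 ± 10.3 FPKM in hypoxia and 68.5 ± 4.88 FPKM in controls (SD, n = 5 each).

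Supply of the sulfate donor showed 2 of 6 genes lower and none higher, against 7.79% and 3.66% of all genes tested. Papss1, which makes PAPS, was at 32.6 ± 6.04 FPKM in hypoxia and 48.6 ± 4.93 FPKM in controls (SD, n = 5 each), with a log2 fold change of -0.58 (limma adjusted p = 0.0212, SE 0.133). Bpnt1, which hydrolyses the spent donor, had a log2 fold change of -0.63 (limma adjusted p = 0.0459, SE 0.179). Bpnt1 lost its call in 8 and Papss1 in 3 of the 10 fits that left out 1 library, with the highest adjusted p of 0.111 and 0.0602 without control replicate 1. Papss2, the second PAPS synthase, had a log2 fold change of 0.39 (limma adjusted p = 0.132), and of 0.57 in the reduced set (limma adjusted p = 0.00506). Hypoxia replicates 1 to 4 of Papss2 lay at 118 to 135 FPKM, above all controls at 76.2 to 96.1 FPKM, and hypoxia replicate 5 was at 74.4 FPKM.

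Supply of UDP-glucuronate showed no limma call among 3 genes, 1 of which had an unadjusted p under 0.05. Ugdh, the dehydrogenase that makes UDP-glucuronate, had a log2 fold change of 0.32 (limma adjusted p = 0.0943, SE 0.113) and of 0.45 in the reduced set (limma adjusted p = 0.0177). Ugp2, which makes UDP-glucose and was the most abundant of the 3, was at 59.7 ± 10.2 FPKM in hypoxia and 62.7 ± 2.73 FPKM in controls (SD, n = 5 each). Gusb, the lysosomal beta-glucuronidase that removes glucuronate, had a log2 fold change of -0.43 (limma adjusted p = 0.0981), and of -0.63 in the reduced set (limma adjusted p = 0.00665). None of 7 efflux pumps passed the threshold in the limma fit, 2 of them having an unadjusted p under 0.05. Abcc4, whose groups did not overlap, had a log2 fold change of 0.47 (limma adjusted p = 0.0564), and Abcc6 of 0.26 (limma adjusted p = 0.213). In the reduced set 2 pumps were called higher, against 4.62% of all genes tested. These were Abcc4 with a log2 fold change of 0.56 and Abcc6 with 0.39 (limma adjusted p = 0.0478 and 0.0378). Abcg2, the most abundant of them, was at 52.6 ± 9.56 FPKM in hypoxia and 60.9 ± 5.73 FPKM in controls.

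Of 15 tested regulators of conjugating enzymes, 2 were lower and none was higher, against 7.79% and 3.66% of all genes tested. Keap1, which holds back the antioxidant regulator Nrf2, was at 6.997 ± 0.686 FPKM in hypoxia and 8.91 ± 0.341 FPKM in controls (SD, n = 5 each), with a log2 fold change of -0.33 (limma adjusted p = 0.0170, SE 0.0717). Vdr, the vitamin D receptor, had a log2 fold change of -0.998 (limma adjusted p = 0.0188, SE 0.221), and of the fits that left out 1 library it lost its call without control replicate 2 (adjusted p = 0.0530). Nfe2l2, which encodes Nrf2, had a log2 fold change of 0.25 (limma adjusted p = 0.0918), and Ahr, the aryl hydrocarbon receptor, of 0.39 (limma adjusted p = 0.0899). These are transcript levels and do not measure the activity of the proteins.

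Motifs were searched on both strands of the promoter windows of 31 of the 35 genes, 41 windows in all, and of 32851 windows of the whole table. TGACNNNGC was found in 7.32% of the 41 windows, those of Gsta3, Gstm5 and Gstm7, and in 12.4% of all windows. GCGTG was in 24.4% of the 41 windows and in 32.4% of all windows. ACGTG, the core of the hypoxia response element, was in 9.76% of the 41 windows, those of Gstm1, Gstp1, Gstt1 and Ugt2b37, and in 19.6% of all windows. GTTAAT was in 14.6% of the 41 windows, among them those of Ugt1a10, Gsta3 and Ugt3a1, and in 7.10% of all windows. No test was made of these shares. Motif letters may overlap, and in Gstm5 the match TGACCACGC shares bases with the reverse complement of GCGTG. A match describes letters in a window of this length and is not evidence of binding.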

How the data were processed

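RNA sequencing of 10 kidney samples was used, 5 per group, grouped by the treatment label with replicate numbers from the titles. The authors deposited 1 table of FPKM values per gene, with gene names, coordinates and biotypes. The deposited table also gives gene length in bases, a unit outside the usual expression units, used here to recover reads. The submitters' processing notes name HISAT2 2.0.5 and hg38, a human build, whereas the table's identifiers are murine. Coordinates were identical to a GRCm38 annotation for 99.4% of 55227 matched genes and for all 35 genes described, and GRCm38 is used. Which tool counted reads, and how it handled strand, shared exons and multiple matches, is not given in the sources used here.

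Multiplied by gene length, 100% of FPKM values were whole multiples of the library's value for 1 read (tolerance 0.05), which gave read numbers and floors of 3 reads that cover counting error only. Genes averaging 0.5 FPKM or more were tested on log2(FPKM + 0.5), a scale that understates the change of low genes, with limma 3.58.1 in R 4.3.3 (trend and robust, two-sided, no term besides group), Benjamini-Hochberg adjusted over all 15264 genes. The test was tried on simulated data drawn with the same spread in both groups, whereas the hypoxia libraries here were more spread. That trial checks the running of the test and does not give its error rate in these data. Alternatives covered scaling, pseudocounts of 0.1 and 1, filters, the error model, voom on recovered reads, a replicate block, omission of hypoxia replicates 4 and 5 and of each library in turn. Shared sequence was counted as stretches of 50 bases in GENCODE transcripts. Figures used matplotlib 3.10.9 in Python 3.11.15.

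The members, the gene and marker lists and the motifs were chosen with earlier results of these data known. Full values are given for transferase genes past the threshold with or without hypoxia replicates 4 and 5 and for the 2 most abundant members of each family. For those nearest the level threshold means are given, with log2 fold changes where tested. Of each pathway list, up to 3 called genes or otherwise the most abundant are named, and further list genes were picked with their values in view. Replicate numbers were checked for pairing. A gene that the rule for named genes takes is not reported here.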

Additional observations from a re-analysis of the deposited data

Results flagged for a closer look

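In 10 of 102 groups of 5 libraries, 1 library lay far from the other 4 of its group by Dixon's ratio, where chance gives about 1 in 20. Control replicate 4 was the low library for Sult1d1 at 306 FPKM, Sult1b1 at 1.148 FPKM, Gsta3 at 13.8 FPKM and Anpep at 40.3 FPKM, and the high control for Hnmt, the histamine N-methyltransferase, at 14.2 FPKM. Hypoxia replicate 5, which carried B cell and pancreas RNA, was the low library for Gstt3 at 6.51 FPKM and Bpnt1 at 58.1 FPKM, and the high one for Gstcd at 3.11 FPKM. Hypoxia replicate 2 was the high library for Gstm4 at 8.84 FPKM. Control replicate 2 was the high library for Gstp1 at 8.38 FPKM.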

How the results depend on the processing

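Scaling by the median of ratios, pseudocounts of 0.1 and 1 and a minimum of 1 FPKM gave the same 6 higher and 1 lower transferase genes. Without a filter on low values 4 were higher, Gsta2 and Gsta3 losing their calls, 0 were lower and 966 of all tested genes were called, against 1748. With a replicate block the same 4 were higher, 2 were lower (Ugt2b5 and Ugt3a1) and 999 of all tested genes were called. Gsta3 also lost its call under eBayes without trend or robust estimation, and voom added Gstt1. The replicate numbers did not pair the samples (correlations of -0.0771 to 0.0861, and 2 of 5 numbers correlated best with their own). Without hypoxia replicates 4 and 5, 8 were higher and 0 lower. Leaving out 1 library in turn gave 3 to 12 higher, 0 to 2 lower and 825 to 2749 called genes in all. The counts of 12 and 2749 came without hypoxia replicate 5, and 3 were higher without hypoxia replicate 1, 3 or 4 or control replicate 2 or 5. The count of 825 came without control replicate 1, and the 2 lower without hypoxia replicate 2.

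Among genes that were never called, some log2 fold changes turned sign. Without hypoxia replicates 4 and 5 these were Ugt3a2 at 0.012, Sult1a1 at -0.17, Sult1b1 at 0.082 and Gstcd at -0.064. Over the fits that left out 1 library, values ranged from -0.032 to 0.24 for Ugt2a3, -0.052 to 0.10 for Sult1a1, -0.17 to 0.057 for Sult1b1, -0.014 to 0.20 for Gstm1, -0.027 to 0.071 for Gstm5, -0.014 to 0.15 for Gstz1, -0.0044 to 0.19 for Gstt2 and -0.047 to 0.081 for Gstcd. The cause was not tested. Depth limits Ugt1a2, Ugt1a10, Ugt1a6b, Ugt2a3, Sult1b1, Gstp1, Gsta1, Gsto2 and Gstm6, which had fewer than 50 reads in some library.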

Other observations

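Among enzymes that conjugate by methyl or acyl transfer, 2 of 8 tested were called higher in hypoxia, against 3.66% of all genes tested. Hnmt, which inactivates histamine, was at 16.8 ± 2.63 FPKM in hypoxia and 10.4 ± 2.22 FPKM in controls (SD, n = 5 each), with a log2 fold change of 0.68 (limma adjusted p = 0.0174), and Nat2, an arylamine N-acetyltransferase, had a log2 fold change of 0.46 (limma adjusted p = 0.0457). Nat2 lost its call in 8 and Hnmt in 1 of the 10 fits that left out 1 library.

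The sulfotransferases of the Golgi act on proteins and glycans and do not carry the Sult name. Of 22 tested genes 1 was higher and 2 were lower, against 3.66% and 7.79% of all genes tested. Chst11, which sulfates chondroitin, was at 6.38 ± 1.48 FPKM in hypoxia and 15.7 ± 2.15 FPKM in controls (SD, n = 5 each), without overlap, with a log2 fold change of -1.25 (limma adjusted p = 0.00147). Chst7 had a log2 fold change of -1.10 (limma adjusted p = 0.0208) and Chst1 of 0.71 (limma adjusted p = 0.0468). Without hypoxia replicates 4 and 5 neither was called, with -0.76 for Chst7 (limma adjusted p = 0.0526) and 0.45 for Chst1 (limma adjusted p = 0.131), whose highest values, 4.54 and 3.68 FPKM, were those of these libraries. Chst1 also lost its call in 8 and Chst7 in 4 of the 10 fits that left out 1 library.

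Hypoxia replicate 2 held reads of conjugating genes that were at or near 0 elsewhere. Sult2a8 had 12 reads and Ugt2b36 14 reads in that library and 0 reads in the other 9, Ugt2b1 had 15 reads and at most 3 elsewhere, and Ugt2b35 had 8 reads and at most 1 elsewhere. These genes were chosen after their values were seen. In the same library the liver markers Alb at 45.1 FPKM, Ahsg at 4.11 FPKM and Cps1 at 0.674 FPKM were above their highest values in the other 9 libraries, which were 5.48, 0.180 and 0.0219 FPKM. Apoa2, at 15.3 FPKM against at most 9.87 FPKM elsewhere, was also highest there. Cyp2e1, the fifth liver marker, was not, at 521 FPKM against up to 659 FPKM elsewhere. The part of liver RNA in the values of this library was not tested.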
